A study of Mus musculus with 36 samples.

Results

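The addition of TNFα to a low dose of IL-6 was examined in mouse hypothalamus by comparing 6 arrays of the TNF + IL-6 Low group with 6 arrays of the IL-6 Low group, chosen by the sample titles, which gave 12 of the 36 arrays of the study. Mice of the TNF + IL-6 Low group received 15 pg TNFα together with 50 pg IL-6, and mice of the IL-6 Low group received 50 pg IL-6 alone. Both groups consisted of male C57BL/6 mice that were given 50 µl intraperitoneally shortly before the dark phase and were killed 5 h later, so that IL-6 was shared by all 12 animals. Each group had 12 mice, of which 6 gave hypothalamic RNA for 1 Affymetrix Mouse Gene 1.1 ST array each. The saline controls were not used. Each difference below is therefore one between the means of mice given IL-6 with and without TNFα, and not between either cytokine and vehicle. As a second comparison with no arrays in common, TNF + IL-6 High (15 pg TNFα and 800 pg IL-6) was set against IL-6 High (800 pg IL-6).

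TNFα is a cytokine of activated macrophages that binds the receptors TNFR1 and TNFR2, after which the IKK kinases release the transcription factor NF-kB from its inhibitor IkBα. NF-kB then induces adhesion molecules, chemokines and its own inhibitors. IL-6 binds IL-6Rα and the shared subunit gp130, which activates JAK kinases and the transcription factor STAT3, with SOCS3 as feedback inhibitor. In the hypothalamus both cytokines are known for fever, activation of the stress axis and loss of appetite, and serotonin is among the transmitters that reduce feeding.

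Values are log2 intensities, and differences are log2 differences of TNF + IL-6 Low minus IL-6 Low. The median correlation of each array with the other 11 lay between 0.983 and 0.989, and array medians lay between 5.61 and 5.71. Upper quartiles were less even, from 7.33 in IL-6 Low replicate 4 and 7.39 in TNF + IL-6 Low replicate 5 to 7.54. These 2 arrays also had the lowest mean over all genes tested, at 6.85 and 6.89, against 6.93 to 7.02 on the other arrays. Of 18820 named genes, 14594 had an intensity over 20 on at least 3 of the 12 arrays and were tested with limma. The labelled tissue was checked against 20 hypothalamic markers, of which 18 were named on the arrays and 17 were tested. Nkx2-1, a transcription factor required for hypothalamic development, lay between 5.89 and 6.63 in TNF + IL-6 Low and between 6.12 and 6.58 in IL-6 Low, and Oxt (oxytocin) between 9.40 and 10.63 in TNF + IL-6 Low and between 9.66 and 10.71 in IL-6 Low. Rax, a marker of tanycytes, was not over the minimum. One array stood apart within its group in the genes of a neighbouring tissue: TNF + IL-6 Low replicate 3 had a mean level of 10.63 over 9 tested pituitary genes, whereas the other 5 arrays of that group ranged from 5.21 to 6.53 and the 6 IL-6 Low arrays from 5.29 to 6.77. The main results that rest on this array are given with and without it.

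The promoters of 4 genes, chosen among those searched because they hold a match, are shown as the 150 bases before the RefSeq start site (GRCm38.p6), with motif matches in capitals, found on either strand. Prl, prolactin, had the largest difference of all genes tested, and its promoter (chr13:27057420-27057569, plus strand) holds 2 matches to TATNCAT, a core of sites of the pituitary factor POU1F1. Nfkbia, which encodes IkBα (chr12:55492648-55492797, minus strand), and Tnfaip3, which encodes the NF-kB inhibitor A20 (chr10:19015411-19015560, minus strand), are classical targets of TNFα and show the kappaB motif. Cry1, a repressor of the circadian clock (chr10:85185055-85185204, minus strand), was among the genes whose arrays did not overlap between the groups, and shows the E-box CACGTG.
Prl: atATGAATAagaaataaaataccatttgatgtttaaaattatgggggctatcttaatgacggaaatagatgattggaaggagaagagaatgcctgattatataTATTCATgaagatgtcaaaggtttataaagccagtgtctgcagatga
Nfkbia: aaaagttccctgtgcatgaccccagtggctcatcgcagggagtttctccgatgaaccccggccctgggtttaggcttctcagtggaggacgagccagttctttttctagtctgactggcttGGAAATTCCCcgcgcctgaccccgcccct
Tnfaip3: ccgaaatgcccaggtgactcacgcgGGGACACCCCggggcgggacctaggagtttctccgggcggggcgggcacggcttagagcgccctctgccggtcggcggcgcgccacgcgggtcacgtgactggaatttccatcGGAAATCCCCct
Cry1: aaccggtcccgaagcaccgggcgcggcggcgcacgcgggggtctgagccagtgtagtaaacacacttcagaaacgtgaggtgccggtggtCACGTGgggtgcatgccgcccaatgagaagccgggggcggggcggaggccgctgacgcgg
In all, 7.92% of 32851 promoters of 250 bases held TATNCAT, 7.25% the kappaB motif and 6.02% CACGTG. The 250 bases of Cga, Lhb, Fshb and Pomc held no TATNCAT, and no promoter entry was found for Gh. The kappaB motif was searched only as GGGRNNYYCC, where R is A or G, Y is C or T and N is any base. In that form it was absent from the 250 bases of Lcn2, Icam1, Birc2 and a second Tnfaip3 start. The CArG box was also searched for, only as CCWWWWWWGG, where W is A or T. It had 1 match in Myl9 and none in Acta2, Flna and Tpm2, and no promoter entry was found for Tagln. Near matches, such as CCCTATATGG in Acta2, were not counted. These matches describe the sequences and were not tested as binding sites.

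Adding TNFα to low IL-6 gave no gene past the threshold. At an adjusted p under 0.05, limma called 0 of 14594 genes in either direction, the smallest adjusted p being 0.881, and the intensity-based moderated statistic named in the study's methods also called 0. At an unadjusted p under 0.05, 317 genes were above and 231 below IL-6 Low (2.17% and 1.58% of the genes tested, 3.75% together), where 729.7 genes would reach this p with no difference at all. With a fold over 1.2 as well, 123 genes were counted (0.843%). Differences were small, with a median absolute value of 0.07, and 46.3% of all genes lay above 0. The median standard error was 0.09, and the 95% confidence interval of a gene reached a median of 0.19 to either side. A difference below about this size was thus not resolved by 6 against 6 arrays. These intervals are not adjusted for the number of genes tested. Larger differences, such as 0.46 in Cyp2d10, did not pass the adjusted threshold either, so that the 0 calls do not limit differences to 0.19. The p-values set each difference against the spread between mice of one experiment, with variances moderated across genes.

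The 10 genes of smallest p above IL-6 Low differed by 0.28 to 0.46, and none passed the adjusted threshold. IL-6 Low replicate 4, the array of lowest mean over all genes, was the lowest array in Ttc30b, Top2b, Cfap47, Spata20, Ifrd1 and Zfp455, and not in the others. Ttc30b, a component of intraflagellar transport in cilia, had a lowest, median and highest level of 6.45, 6.68 and 6.76 in TNF + IL-6 Low, against 6.19, 6.28 and 6.48 in IL-6 Low. Its difference was 0.32 ± 0.08 (SE), with an unadjusted p of 0.00115 and a limma adjusted p of 0.881. All 6 TNF + IL-6 Low arrays lay above the IL-6 Low median, while the lowest of them lay just below the highest IL-6 Low array. Top2b, a DNA topoisomerase of postmitotic neurons, was measured at 8.28, 8.49, 8.44, 8.34, 8.72 and 8.38 in TNF + IL-6 Low replicates 1 to 6, against 8.10, 8.24, 8.15, 8.03, 8.14 and 8.28 in IL-6 Low. Its groups did not overlap, although the lowest TNF + IL-6 Low array and the highest IL-6 Low array were nearly level, and the difference was 0.28 ± 0.08 (SE; adjusted p = 0.881 with limma). Frrs1, a ferric reductase, likewise did not overlap, with 6.15, 6.30 and 6.41 as lowest, median and highest in TNF + IL-6 Low, against 5.76, 6.05 and 6.13 in IL-6 Low.

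The remaining genes of smallest p above IL-6 Low were Cfap47, a gene of motile cilia (0.38), Spata20 (0.33), the transcriptional coregulator Ifrd1 (0.28), the growth factor gene Bmp8a (0.33), the potassium channel gene Kcnh3 (0.30), the zinc finger gene Zfp455 (0.44) and the cytochrome P450 gene Cyp2d10 (0.46). Their groups overlapped in all 7 cases. Cyp2d10 was highest on a single array, at 5.24 in TNF + IL-6 Low, where the group median was 4.41, against a median of 4.10 in IL-6 Low. Its IL-6 Low arrays, at most at 4.28, were all below the minimum intensity, so that it was tested through TNF + IL-6 Low arrays alone. The differences of these 10 genes were above 0 in each of the 4 rows given by the letters of the array names when these were compared separately. The rows held as few as 1 array a group, and Zfp455 differed by 0.01 in row F and Bmp8a by 0.02 in row E. As the genes were picked by p on these same arrays, this agreement of sign is no separate check.

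The 10 genes of smallest p below IL-6 Low differed by -0.27 to -0.39, and none passed either. TNF + IL-6 Low replicate 5, also low in its mean over all genes, was the lowest array in Kcnmb1, Atpaf2, Ezhip, Grip2 and Il34, and not in the others. Kcnmb1, the beta subunit of the calcium-activated potassium channel of smooth muscle, was 4.75, 4.86 and 5.17 (lowest, median and highest) in TNF + IL-6 Low, against 5.04, 5.25 and 5.59 in IL-6 Low. The difference was -0.37 ± 0.10 (SE), with an adjusted p of 0.881 in limma. Its ranges overlapped. Atpaf2, an assembly factor of the mitochondrial ATP synthase, was measured at 6.71, 6.50, 6.44, 6.68, 6.41 and 6.58 in TNF + IL-6 Low replicates 1 to 6, against 6.94, 6.88, 6.82, 6.83, 6.71 and 6.79 in IL-6 Low. The groups did not overlap, although the nearest arrays were level to 2 decimals, and the difference was -0.27 ± 0.08 (SE). Olig1, a transcription factor of the oligodendrocyte lineage, was 7.70, 8.03 and 8.37 in TNF + IL-6 Low, against 8.24, 8.33 and 8.49 in IL-6 Low. Its difference of -0.31 held in 3 of the 4 array rows, with 0.10 in row E.

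Il34, a ligand of the microglial receptor CSF1R, differed by -0.34, with a range of 6.54 to 7.19 in TNF + IL-6 Low and of 7.09 to 7.43 in IL-6 Low. Further genes of smallest p in this direction were Ezhip, an inhibitor of the chromatin regulator PRC2 (-0.31), the glutamate receptor scaffold gene Grip2 (-0.31), the mitochondrial ribosome gene Mrpl42 (-0.39), Ccdc12 (-0.31), the developmental gene Mab21l1 (-0.31) and Hspa12b, a heat shock gene of endothelial cells (-0.33). All of them overlapped between the groups. In Hspa12b the ranges met at IL-6 Low replicate 2, which lay at 5.09, below the other 5 arrays of its group, which began at 5.36.

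**Figure D1:**
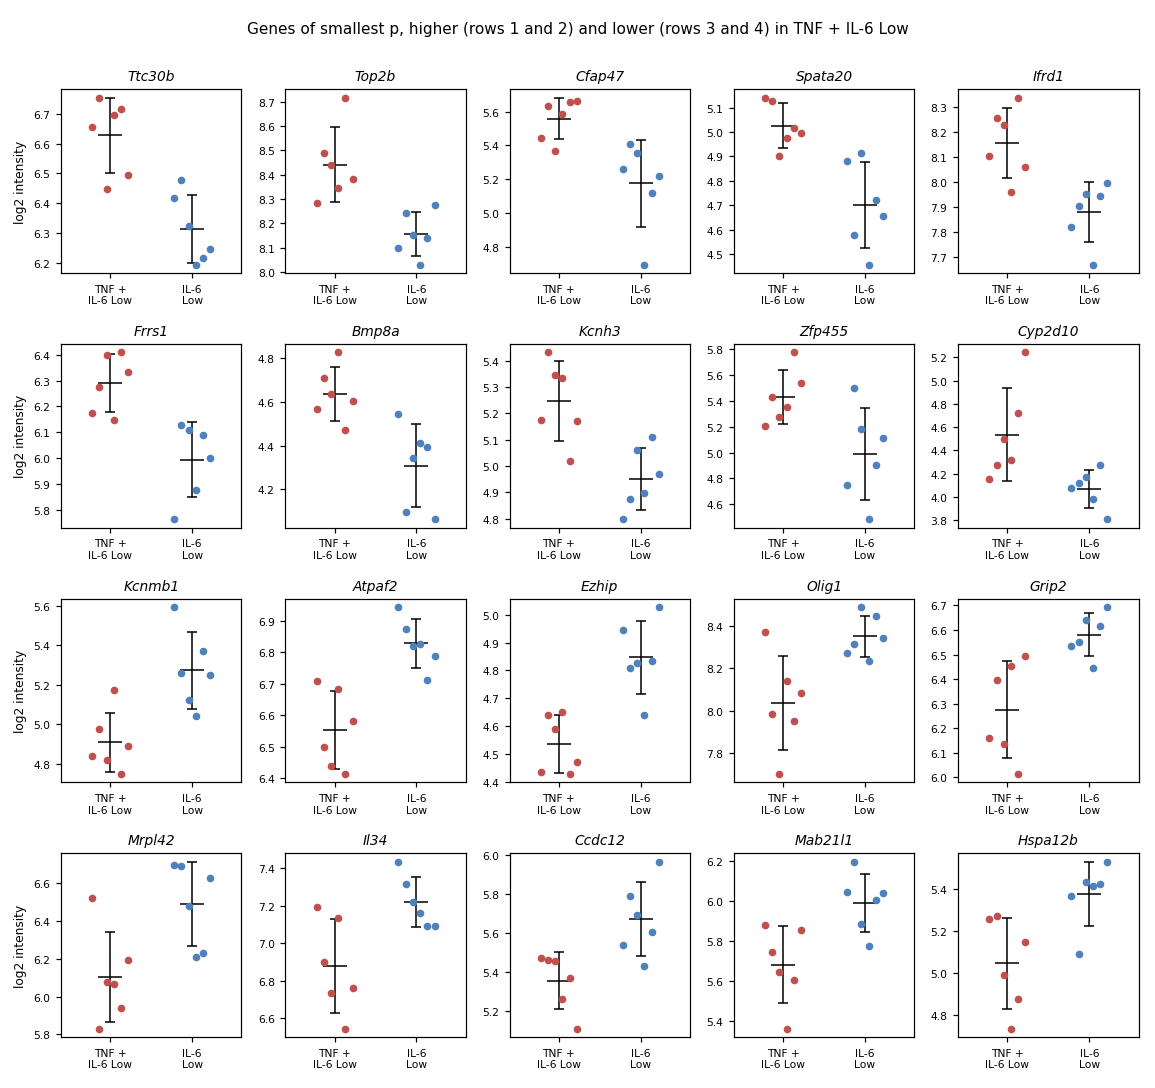
Log2 intensity of the 20 genes of smallest p on each array, with TNF + IL-6 Low (red) left of IL-6 Low (blue) and the mean ± SD of 6 arrays in black; the top 2 rows hold genes above and the lower 2 rows genes below IL-6 Low. The separation was complete in Top2b, Frrs1 and Atpaf2, and the limma adjusted p was 0.881 for all 20 genes.

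Across all genes tested, the 6 and 6 arrays did not overlap for 9 genes above IL-6 Low (0.0617%) and for 7 genes below it (0.048%), 0.11% in all. Beside Top2b and Frrs1, the genes above were Lysmd3 (0.25), the DNA damage ubiquitin ligase gene Rad18 (0.22), the antiproliferative gene Tob1 (0.22), Stk33 (0.31), Cry1 (0.19), the cilia gene Cfap69 (0.18) and Uroc1, an enzyme of histidine breakdown (0.20). Beside Atpaf2, the genes below were the metalloprotease gene Adam19 (-0.22), Ccdc102a (-0.25), Asap3 (-0.16), the kinase gene Nek3 (-0.15), the endocytosis gene Hip1r (-0.14) and the complement factor gene Cfb (-0.16). These genes were picked out after their values were seen, and no adjusted p was under 0.881.

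The largest differences lay in genes of the pituitary, which lies directly below the hypothalamus, and rested largely on a single animal. A fold over 1.5 above IL-6 Low was reached by 9 genes (0.0617% of those tested), and all 9 had their highest value on TNF + IL-6 Low replicate 3. Among these were 6 hormone genes, Prl, Gh, Cga, Lhb, Pomc and Fshb. Prl was measured at 3.38, 5.64, 12.82, 3.69, 3.71 and 7.58 in TNF + IL-6 Low replicates 1 to 6, against 4.04, 3.65, 4.30, 7.66, 3.54 and 3.86 in IL-6 Low. Gh, growth hormone, was measured at 5.21, 8.04, 13.57, 5.76, 5.13 and 10.65 in TNF + IL-6 Low, against 5.25, 5.88, 5.53, 11.14, 5.30 and 5.63 in IL-6 Low. Both were thus high on TNF + IL-6 Low replicates 3 and 6 and on IL-6 Low replicate 4, and the groups overlapped widely. TNF + IL-6 Low replicate 2, at 5.64 and 8.04, also lay above all IL-6 Low arrays other than replicate 4. The differences were 1.62 ± 1.16 for Prl and 1.61 ± 1.21 for Gh (SE; adjusted p = 0.881 with limma for each). Without replicate 3 they were 0.29 for Prl and 0.50 for Gh, and without IL-6 Low replicate 4 they were 2.25 and 2.54.

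The gonadotropin genes and Pomc were high on the one array only. Cga, the alpha subunit shared by the glycoprotein hormones, was 11.38 on TNF + IL-6 Low replicate 3 and 4.65 to 5.66 on the other 5 arrays of the group, against 4.24 to 6.03 in IL-6 Low. Lhb, the beta subunit of luteinizing hormone, was 10.64 on that array and 4.98 to 5.23 on the others, against 4.86 to 5.41 in IL-6 Low. Pomc, the precursor of ACTH in the pituitary and of the anorexigenic peptide α-MSH in the arcuate nucleus, was 11.45 on that array and 5.16 to 6.03 on the others, against 5.28 to 6.48 in IL-6 Low. Apart from replicate 3 the ranges of these genes overlapped. Their differences of 1.37, 0.92 and 0.87 became 0.36, -0.01 and -0.09 without replicate 3. Fshb, the beta subunit of follicle-stimulating hormone, was 9.44 on that array and at most 4.42 on the other 5, against at most 4.68 in IL-6 Low, and did not pass the minimum intensity without it.

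Of 14 pituitary markers, 12 were named on the arrays and 9 were tested, and all 9 lay above IL-6 Low, with a median difference of 0.87 beside -0.01 over all genes. Tshb, Pitx1 and Gnrhr were not over the minimum. Without replicate 3, 3 of 8 lay above and 5 below, with a median of -0.03. The remaining genes past the fold were Oacyl (0.81), Cyp2f2, a cytochrome P450 gene (0.72), and Lcn2, lipocalin 2, an acute-phase protein (0.61), which became 0.00, 0.02 and 0.14 without replicate 3. In bulk tissue, more cells of a type and more RNA per cell cannot be told apart.

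Without this array, 1 gene lay above IL-6 Low by over 1.5-fold, Slc17a7, which encodes a vesicular glutamate transporter (0.60). None of the 9 genes was left. Below IL-6 Low, 1 gene passed the fold (0.00685%). It was Chrna5, a nicotinic receptor subunit, at 4.48, 4.90, 3.98, 3.57, 3.70 and 4.01 in TNF + IL-6 Low, against 5.13, 4.01, 4.49, 5.23, 4.19 and 5.42 in IL-6 Low. The groups overlapped and several of these values were below the minimum intensity. The difference was -0.64 ± 0.24 (SE), and -0.61 without replicate 3. It did not pass limma (adjusted p = 0.881).

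**Figure D2:**
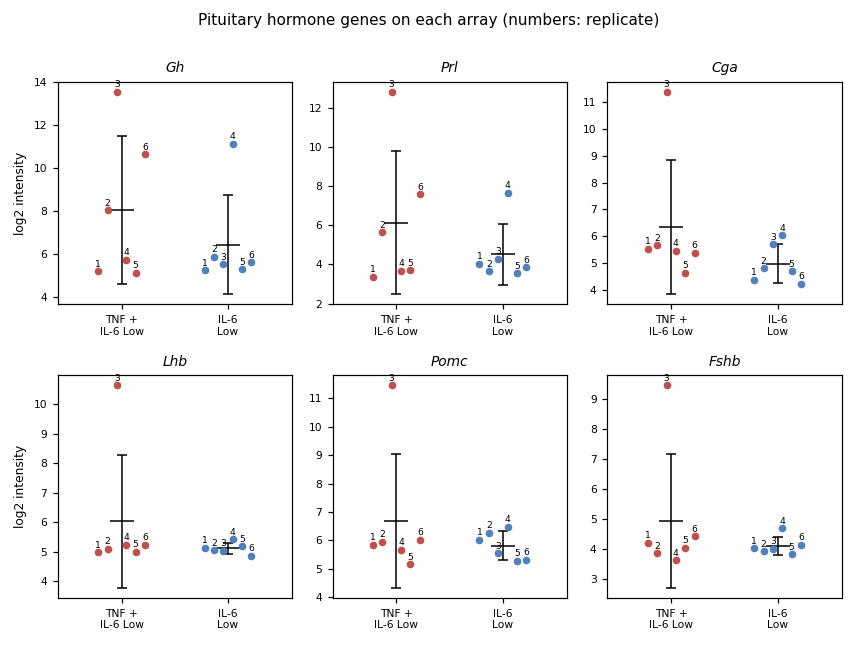
Log2 intensity of 6 pituitary hormone genes in TNF + IL-6 Low (red, left) and IL-6 Low (blue, right), with the replicate number over each array and the mean ± SD of 6 arrays in black. Replicate 3 of TNF + IL-6 Low is the highest array in every panel, at 9.44 to 13.57, and IL-6 Low replicate 4 is high for Gh and Prl.

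The genes of the TNFα pathway showed no difference past the threshold after TNFα was added. Of 18 ligands of the TNF and IL-6 families, 16 were named and 8 tested. Tnf and Il6 themselves were not over the minimum intensity, nor were Il1a and Il1b. Of the 8 tested, 4 lay above and 4 below IL-6 Low, with a median of 0.00 and a range of -0.09 to 0.09. No member reached an unadjusted p under 0.05, the largest difference being that of Csf1 (-0.09), the macrophage growth factor, and of Lif (0.09), a cytokine that signals through gp130.

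Among TNF receptors and their proximal signalling proteins, 8 of 19 lay above and 11 below, with a median of -0.01. Tnfrsf1a, which encodes TNFR1, had a lowest, median and highest level of 5.77, 6.10 and 6.81 in TNF + IL-6 Low, against 5.88, 6.26 and 6.43 in IL-6 Low. The TNF + IL-6 Low arrays thus enclosed the range of the other group, and the difference was -0.09 ± 0.14 (SE). Tnfrsf1b, which encodes TNFR2, differed by -0.02. The anti-apoptotic genes Birc2 (cIAP1) and Cflar (c-FLIP) differed by 0.15 and 0.16, both with an adjusted p of 0.881 in limma, and Cflar by 0.08 without TNF + IL-6 Low replicate 3. In the NF-kB core, 7 of 17 genes lay above and 10 below, with a median of -0.03. The deubiquitinase gene Cyld, a brake on NF-kB, and the subunit gene Rel had the smallest p, with differences of 0.16 and 0.13.

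Of 23 tested NF-kB target genes, 9 lay above and 14 below IL-6 Low, with a median of -0.05, and none reached an unadjusted p under 0.05. Nfkbia was measured at 7.58, 7.50, 7.25, 7.41, 7.64 and 7.51 in TNF + IL-6 Low replicates 1 to 6, against 7.29, 7.07, 7.11, 7.62, 7.77 and 7.40 in IL-6 Low. All TNF + IL-6 Low arrays lay within the range of IL-6 Low. The difference was 0.11 ± 0.11 (SE), with a 95% confidence interval of -0.12 to 0.34. Tnfaip3, whose promoter above holds 2 kappaB matches, was 4.68, 4.89 and 5.08 (lowest, median and highest) in TNF + IL-6 Low, against 4.67, 4.86 and 5.24 in IL-6 Low, and its interval ran from -0.24 to 0.19. Icam1, an endothelial adhesion molecule, differed by -0.16, and Mmp9, a matrix protease, by -0.20. Both ranges overlapped between the groups, and Mmp9 had the smallest p of the list (0.0558, unadjusted). Of these targets only Lcn2, given above with replicate 3, passed a fold of 1.5.

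IL-6 was given at the same dose in both groups. Of 14 receptor and JAK-STAT3 genes of its pathway, 5 lay above and 9 below IL-6 Low, with a median of -0.03. Jak2, a kinase bound to gp130, was the one member with an unadjusted p under 0.05, which 3.75% of all genes tested reached. Its lowest, median and highest levels were 7.75, 7.88 and 7.98 in TNF + IL-6 Low, against 7.62, 7.68 and 7.81 in IL-6 Low. The difference was 0.16 ± 0.07 (SE; adjusted p = 0.881 with limma), and the ranges overlapped. Tyk2, a second kinase of this family, differed by -0.19. Il6ra differed by -0.05 and Il6st, which encodes gp130, by -0.08. Of 19 STAT3 targets and acute-phase genes, 9 lay above and 10 below, with a median of -0.02 and none with an unadjusted p under 0.05. Socs3 was 4.64, 4.97 and 5.17 in TNF + IL-6 Low, against 4.73, 4.95 and 5.00 in IL-6 Low. Its difference of 0.04 ± 0.10 (SE) was below the spread between arrays. Mt1, a metallothionein, differed by 0.08.

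Interferon-response genes were spread in both directions. Of 22 tested, 15 lay above and 7 below IL-6 Low, with a median of 0.03, where 46.3% of all genes lay above 0. With 1 array left out, 11 to 18 lay above. The members with an unadjusted p under 0.05 were both below: Xaf1, a pro-apoptotic interferon target (-0.22), and Irf8, a transcription factor of microglia and other myeloid cells (-0.22). Of all genes tested, 3.75% reached this p, and 1.58% did so below IL-6 Low. Neither passed limma (adjusted p = 0.881 for both). In MHC class II and antigen presentation, 3 of 8 lay above with a median of -0.06. With 1 array left out, 2 to 7 lay above, and the median was 0.06 without TNF + IL-6 Low replicate 5. B2m, the light chain of MHC class I, was 10.68 on TNF + IL-6 Low replicate 3 and 9.83 to 10.03 on the other 5 arrays of the group, against 9.78 to 9.98 in IL-6 Low. Its difference was 0.15, and 0.03 without that array. Of 13 genes of prostaglandin synthesis and reception, which mediate fever, 9 lay above, led by Ptges3 (0.16), and of 5 kynurenine pathway genes 1 lay above.

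Serotonin was of interest in the study because it reduces feeding. Of 15 genes that make, carry or degrade serotonin, 13 were named and 11 tested, of which 2 lay above and 9 below IL-6 Low, with a median of -0.09 (-0.01 over all genes). This median was -0.19 without TNF + IL-6 Low replicate 1 and -0.06 without TNF + IL-6 Low replicate 6. Tph2, the rate-limiting enzyme of neuronal serotonin synthesis, was measured at 4.49, 4.56, 4.01, 4.04, 3.73 and 4.02 in TNF + IL-6 Low replicates 1 to 6, against 3.73, 4.17, 4.41, 4.34, 4.28 and 5.70 in IL-6 Low. The highest array, IL-6 Low replicate 6, stood well above the rest, and most values lay near the minimum intensity. Slc6a4, the serotonin transporter, was measured at 4.57, 4.60, 4.18, 3.99, 4.14 and 4.22 in TNF + IL-6 Low, against 4.28, 4.17, 4.73, 4.54, 4.34 and 5.69 in IL-6 Low. The same IL-6 Low array was the highest. The differences of -0.30 ± 0.23 (Tph2) and -0.34 ± 0.19 (Slc6a4; SE) did not pass limma (adjusted p = 0.881 for each), and without IL-6 Low replicate 6 they were -0.05 and -0.13. Both genes are transcribed in cell bodies of the raphe nuclei of the brainstem, and of 10 tested markers of serotonergic neurons 5 lay above and 5 below.

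Qdpr, which regenerates the cofactor tetrahydrobiopterin, was the one member with an unadjusted p under 0.05 (3.75% of all genes tested). It was 9.25, 9.47 and 9.67 in TNF + IL-6 Low, against 9.47, 9.70 and 9.78 in IL-6 Low, with overlapping ranges and a difference of -0.18 ± 0.08 (SE). Spr, a synthetic enzyme of the same cofactor, differed by -0.19. Of 12 serotonin receptor genes, 6 lay above and 6 below. Htr5b, which had an unadjusted p under 0.05 (3.75% of all genes tested), was more spread in TNF + IL-6 Low, with 4.06, 4.80 and 5.08, against 4.36, 4.47 and 4.50 in IL-6 Low. Its difference was 0.28.

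Genes of appetite and of hypothalamic hormones did not pass the threshold either. Of 13 orexigenic genes, 7 lay above and 6 below IL-6 Low, with a median of 0.02. Npy, neuropeptide Y of the arcuate nucleus, was measured at 8.04, 7.84, 7.93, 7.96, 7.61 and 7.46 in TNF + IL-6 Low replicates 1 to 6, against 8.05, 8.33, 7.91, 7.74, 7.77 and 7.79 in IL-6 Low. The groups overlapped, and the difference was -0.12 ± 0.11 (SE), with a 95% interval of -0.36 to 0.11. Hcrt, orexin of the lateral hypothalamus, was 8.44, 8.94 and 9.55 in TNF + IL-6 Low, against 8.64, 9.50 and 9.96 in IL-6 Low, and differed by -0.39 ± 0.21 (SE). Pdyn, the opioid precursor prodynorphin, was 5.75, 6.26 and 6.54 in TNF + IL-6 Low, against 6.27, 6.59 and 6.76 in IL-6 Low. Its difference of -0.33 ± 0.13 (SE) was negative in all 4 array rows. In limma its unadjusted p was 0.0229 and its adjusted p 0.881, where 3.75% of all genes tested had an unadjusted p under 0.05. The rows are parts of the arrays by which Pdyn was picked, and give no separate check.

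Of 17 anorexigenic genes, 6 lay above and 11 below, with a median of -0.06. The smallest p values were those of the insulin receptor gene Insr (0.15) and the leptin receptor gene Lepr (-0.19). Of 10 genes of magnocellular and releasing hormones, 2 lay above and 8 below. Avp, vasopressin, was 8.81, 9.30 and 9.73 in TNF + IL-6 Low, against 9.33, 9.54 and 10.06 in IL-6 Low. The difference of -0.34 ± 0.16 (SE) was negative in all 4 array rows, with overlapping ranges and an adjusted p of 0.881 in limma. Here too the rows are parts of the arrays by which the gene was picked. Oxt differed by -0.21 (-0.09 without TNF + IL-6 Low replicate 6). Th, the rate-limiting enzyme of dopamine synthesis, differed by -0.41 ± 0.22 (SE), and by -0.23 without TNF + IL-6 Low replicate 5, and of 12 markers of dopaminergic neurons 2 lay above and 10 below. Of the 17 hypothalamic identity genes, 6 lay above and 11 below, with a median of -0.09. The make-up of the dissected tissue was not tested.

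**Figure D3:**
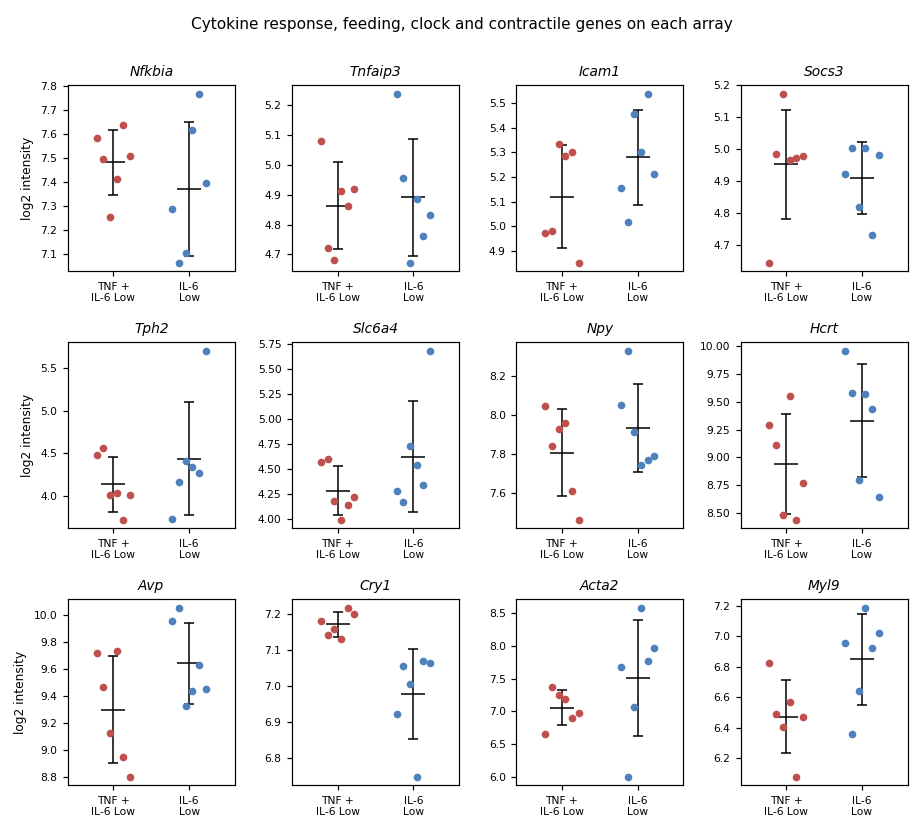
Log2 intensity of 12 genes of cytokine response, serotonin, feeding, water balance, the clock and contraction on each array, with TNF + IL-6 Low (red) left of IL-6 Low (blue) and the mean ± SD of 6 arrays in black. Cry1 alone separated the groups, and IL-6 Low replicate 6 is the highest array for Tph2 (5.70) and Slc6a4 (5.69).

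Clock genes lay more often above than below IL-6 Low, at 11 of 16, with a median of 0.06, where 46.3% of all genes lay above 0. Cry1 was 7.13, 7.17 and 7.22 (lowest, median and highest) in TNF + IL-6 Low, against 6.75, 7.03 and 7.07 in IL-6 Low. The arrays did not overlap, and the TNF + IL-6 Low arrays were close together. The difference was 0.19 ± 0.07 (SE; unadjusted p = 0.0175, adjusted p = 0.881 with limma). Rorb, a nuclear receptor of the clock, differed by 0.21, also with an unadjusted p under 0.05 (3.75% of all genes tested), and Clock by 0.12. The core genes Per1 and Per2 differed by 0.06 and -0.05. Immediate early genes, which are induced within minutes of neuronal activation, had 11 of 17 above with a median of 0.04, but 5 of 17 and -0.03 without TNF + IL-6 Low replicate 3. Glucocorticoid-response genes, which follow the stress axis, had 10 of 17 above, and 8 to 15 with 1 array left out, the median of 0.05 being -0.05 without TNF + IL-6 Low replicate 1. Sgk1 differed by 0.27 ± 0.23 (SE), by 0.10 without IL-6 Low replicate 2 and by 0.48 without IL-6 Low replicate 5. No member of either list reached an unadjusted p under 0.05.

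Genes of contractile and meningeal cells lay mostly below IL-6 Low. Of 12 targets of SRF and MRTF, which drive actin and contractile genes, 1 lay above and 11 below, with a median of -0.14, and of 10 markers of smooth muscle cells and pericytes 2 lay above and 8 below, also with a median of -0.14. The lists share 5 genes. Myl9, a myosin light chain, was measured at 6.82, 6.49, 6.41, 6.57, 6.08 and 6.47 in TNF + IL-6 Low replicates 1 to 6, against 6.96, 6.36, 6.64, 7.19, 6.92 and 7.02 in IL-6 Low. Tagln, an actin-binding protein, was measured at 5.45, 5.12, 5.18, 5.21, 4.91 and 5.17 in TNF + IL-6 Low, against 5.77, 4.72, 5.03, 6.09, 5.88 and 5.86 in IL-6 Low. IL-6 Low replicates 1, 4, 5 and 6 lay above all TNF + IL-6 Low arrays in both genes, whereas IL-6 Low replicates 2 and 3 did not. The differences were -0.37 ± 0.13 for Myl9 and -0.39 ± 0.18 for Tagln (SE). In limma the unadjusted p was 0.00934 and 0.0468, and the adjusted p was 0.881 for both. Below IL-6 Low, 2 of the 12 SRF and MRTF targets and 3 of the 10 smooth muscle and pericyte markers had an unadjusted p under 0.05. These calls share genes, and 1.58% of all genes tested lay below at this p.

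Acta2, smooth muscle actin, was measured at 6.66, 7.38, 7.24, 7.18, 6.90 and 6.98 in TNF + IL-6 Low, against 7.67, 6.01, 7.07, 8.58, 7.77 and 7.97 in IL-6 Low. The spread was greater in IL-6 Low, where replicate 4 was highest and replicate 2 lowest of all 12 arrays, and the difference was -0.45 ± 0.28 (SE). It was -0.24 without IL-6 Low replicate 4 and -0.75 without IL-6 Low replicate 2. The mean level of the 10 smooth muscle and pericyte markers ranged from 6.13 to 6.31 in TNF + IL-6 Low and from 5.89 (replicate 2) to 6.66 (replicate 4) in IL-6 Low. Pdgfrb, a receptor of pericytes, differed by -0.23, and Flna, an actin crosslinker, by -0.18. The elastin gene Eln differed by -0.25, and 8 of 18 genes of the TGF-beta and matrix list lay above. In that list 1 gene had an unadjusted p under 0.05, below IL-6 Low (1.58% of all genes tested).

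Of 20 markers of meningeal fibroblasts, 4 lay above and 16 below, with a median of -0.20. The organic anion transporter gene Slc22a6 (-0.39) and the GABA and taurine transporter gene Slc6a13 (-0.41) were among the lowest, and none reached an unadjusted p under 0.05. The mean level of these markers ranged from 5.64 to 6.56 in TNF + IL-6 Low and from 5.72 to 6.93 in IL-6 Low, where replicates 2 and 4 were again the lowest and the highest. When 1 array was left out, the median lay between -0.30 (without IL-6 Low replicate 2) and -0.05 (without TNF + IL-6 Low replicate 6). Of 14 endothelial markers 3 lay above and 11 below, with Vwf at -0.23 and Cldn5 at -0.21. Among the 14, 1 had an unadjusted p under 0.05, below IL-6 Low (1.58% of all genes tested). The endothelial median of -0.05 was 0.03, with 8 of 14 above, without TNF + IL-6 Low replicate 1. Of 9 choroid plexus markers 4 lay above, and Kcnj13, a potassium channel of that epithelium, differed by -0.35 ± 0.31 (SE), by -0.16 without TNF + IL-6 Low replicate 6 and by -0.64 without IL-6 Low replicate 2. How far these cells shared in the dissected tissue was not tested.

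Glial markers lay mostly below IL-6 Low, by small amounts. In microglia and macrophages 2 of 14 lay above and 12 below (median -0.10), with Tmem119 at -0.20, C1qa at -0.19 and Csf1r at -0.15. In astrocytes 2 of 11 lay above and 9 below (median -0.07), with Gfap at -0.27 and S100b at -0.23 (-0.13 for S100b without TNF + IL-6 Low replicate 3). In oligodendrocytes 2 of 11 lay above and 9 below (median -0.04), with Mag at -0.24 (-0.13 without TNF + IL-6 Low replicate 3). None of these members reached an unadjusted p under 0.05. TNF + IL-6 Low replicate 3, the array with high pituitary genes, had the lowest mean level of all 12 arrays for each of the 3 lists (6.18, 8.74 and 8.67). Without it, 5 of 14, 4 of 11 and 6 of 11 lay above, and the medians were -0.08, -0.01 and 0.03.

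In tanycytes and ependymal cells, which line the third ventricle, 7 of 12 lay above, and Dio2, the deiodinase that forms active thyroid hormone, had an unadjusted p under 0.05 with a difference of 0.18. That p was reached by 3.75% of all genes tested. Markers of neighbouring brain regions were on both sides: 11 of 14 genes of cortex, hippocampus and thalamus lay above (median 0.09), as did 7 of 12 of cerebellum, with Neurod1 at 0.26 and Calb1 at 0.18, 5 of 9 of striatum and 4 of 5 of blood cells. Without TNF + IL-6 Low replicate 3, 1 of 9 striatal genes lay above and 8 below (median -0.05), and 2 of 4 blood cell genes lay above. None of the genes of these 4 lists reached an unadjusted p under 0.05.

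**Figure D4:**
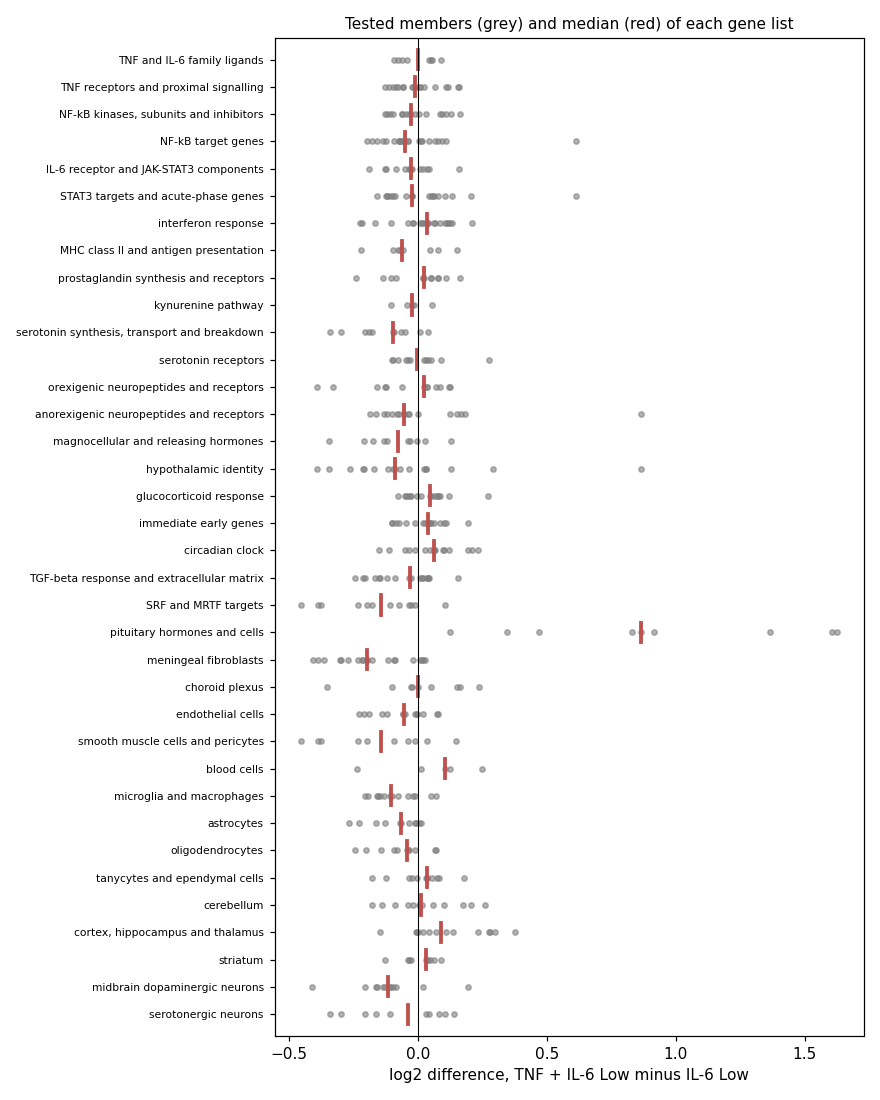
Log2 difference, TNF + IL-6 Low minus IL-6 Low, of each tested member (grey points) of the 36 gene lists, with the median of each list as a red bar. Medians lay between -0.20 (meningeal fibroblasts) and 0.11 (blood cells) apart from the pituitary list at 0.87, which was -0.03 without TNF + IL-6 Low replicate 3.

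The addition of TNFα to the high dose of IL-6 was compared with that to the low dose. How far the 2 comparisons differed was tested as an interaction over 24 arrays and 14896 genes. At an adjusted p under 0.05, limma called 0 genes. At an unadjusted p under 0.05 there were 386 (2.59%), 253 of them above 0 and 133 below (1.7% and 0.893%). The 2 comparisons share no arrays. Across genes, which are not independent replicates, their log2 differences correlated with r = 0.11 and rho = 0.16. Of the 548 genes with an unadjusted p under 0.05 at the low dose, 313 (57.1%) had the same sign at the high dose, beside 55.9% of all genes.

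The genes of smallest interaction p had opposite signs at the 2 doses, which a ranking by the gap between 2 small differences favours. Cdc42ep1, a regulator of the actin cytoskeleton, differed by -0.24 with TNFα at low IL-6 and by 0.33 at high IL-6, an interaction of -0.58 ± 0.14 (SE; adjusted p = 1.00 with limma). Cfap47 differed by 0.38 at low and -0.14 at high IL-6, Zfp455 by 0.44 and -0.23, and Smarca5, a chromatin remodelling ATPase, by 0.22 and -0.25. Oas1a, an interferon-induced antiviral enzyme, differed by -0.57 and 0.22, and was over the minimum intensity only when all 24 arrays were counted. None of these passed the threshold.

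The meningeal list had a median of -0.20 at low and 0.38 at high IL-6, and the SRF and MRTF list of -0.14 and 0.06. Myl9 differed by -0.37 at low and 0.04 at high IL-6, with an interaction of -0.41, and Slc22a6 by -0.39 and 0.47, with an interaction of -0.86 (adjusted p = 1.00 with limma for both). The pituitary list had a median of 0.87 at low and -0.09 at high IL-6. In the feeding and hormone genes, Avp differed by -0.34 and -0.27, Hcrt by -0.39 and -0.28, and Npy by -0.12 and -0.02 at low and high IL-6. Tph2 differed by -0.30 and 0.08, and Slc6a4 by -0.34 and 0.28. Nfkbia (0.11 and -0.01) and Socs3 (0.04 and 0.14) were near 0 at both doses.

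**Figure D5:**
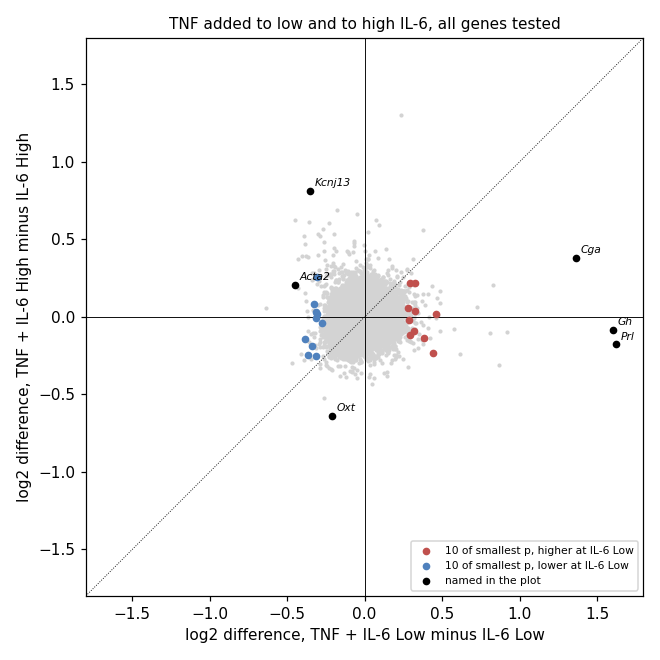
Log2 difference on adding TNFα at low IL-6 (x axis) and at high IL-6 (y axis) for each gene tested (grey), with the 20 genes of smallest p at low IL-6 in red and blue and 6 further genes in black; the dotted line marks equal differences. Prl, Gh and Cga lie far to the right, at 1.62, 1.61 and 1.37, and at -0.18, -0.09 and 0.38 on the y axis.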

How the data were processed

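Hypothalamic RNA was hybridized to 1 array per mouse. The authors summarised the probes by RMA (version not stated in the notes), and deposited log2 intensities of 35556 transcript clusters, which were used unchanged. In the annotation used, 21218 clusters name 1 gene, 1881 several and 12457 none, and the last 2 kinds were left out. For genes with several clusters (1386), the cluster of highest mean over the 12 arrays was taken. The authors' remapping of probes was not used here, and one gene of the study is not reported here. A gene was tested when its intensity was over 20 on at least 3 of the 12 arrays.

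Linear models were fitted with limma 3.58.1 in R 4.3.3 (lmFit, and eBayes with an intensity trend) on the 12 arrays, with Benjamini-Hochberg adjustment over all 14594 genes and a threshold of 0.05. The interaction with IL-6 dose was fitted on 24 arrays. Groups were taken from the sample titles. The procedure was tested on simulated data. The number of arrays limits the precision. Members of the 36 gene lists, the tests and the rules were chosen with earlier results of these data known, and some genes stand in several lists. Lists are described by counts and medians, without a test.

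Genes were named by rule: the 10 of smallest p in each direction, genes past a fold of 1.5, the 4 of smallest p in each list, a fixed set of TNFα, IL-6, serotonin and feeding genes, and the 5 of smallest interaction p, without predicted genes, receptor families and small RNAs. Other genes in the text were picked after their values were seen. Array rows are the letters that open the array names. Alternatives were no filter, a minimum of 50, median centring, quantile normalization, the mean of clusters, no trend, an intensity-based moderated statistic, array weights, a replicate or row block, 29 arrays of the 5 treated groups, and leaving out each array. Promoters are those of RefSeq on GRCm38.p6.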

Additional observations from a re-analysis of the deposited data

Results flagged for a closer look

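In 91 named genes, 182 groups of 6 arrays were examined for a highest or lowest array that lay far from the other 5, and 22 such arrays were found. Chance gives about 1 in 20 groups, but the number is not comparable with that, since 7 of the 22 came from TNF + IL-6 Low replicate 3 in genes named for a fold over 1.5. TNF + IL-6 Low replicate 3 was far above the others of its group in 8 genes, at 11.38 for Cga, 10.64 for Lhb, 11.45 for Pomc, 9.44 for Fshb, 9.78 for Oacyl, 9.57 for Cyp2f2, 8.09 for Lcn2 and 10.68 for B2m. Hormone genes of the pituitary make up 4 of these 8, and the pituitary list as a whole was highest on the same array.

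IL-6 Low replicate 4 was far above the others of its group for Prl (7.66), Gh (11.14), Fshb (4.68) and Lepr (5.92), and far below them for Clock (9.39) and Calb1 (9.73). IL-6 Low replicate 6 stood above its group in both genes of serotonergic neurons, Tph2 (5.70) and Slc6a4 (5.69). IL-6 Low replicate 2 was far below its group for Hspa12b (5.09), Pdgfrb (6.66) and Mag (8.93). Single low arrays were found for Tnfrsf1a (5.88, IL-6 Low replicate 3), Nr4a2 (7.57, IL-6 Low replicate 5) and Eln (5.28, TNF + IL-6 Low replicate 5).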

How the results depend on the processing

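Under all 11 other settings and with each of the 12 arrays left out, 0 genes passed an adjusted p under 0.05, in the comparison or in the interaction, the smallest adjusted p of the comparison being 0.502. Counts at an unadjusted p under 0.05 moved more. The 317 genes above IL-6 Low became 736 with median centring and 507 with quantile normalization, and the 231 genes below became 479 with quantile normalization and 795 with array weights. The share above, 57.8%, was thus 78.4% with median centring and 30.7% with array weights, and it was 18.5% without IL-6 Low replicate 4. With 1 array left out, 141 genes (without IL-6 Low replicate 4) to 532 (without IL-6 Low replicate 2) lay above, and 108 (without TNF + IL-6 Low replicate 5) to 916 (without TNF + IL-6 Low replicate 1) below. The counts above also moved by over 1.5 times without IL-6 Low replicate 1 (186) and TNF + IL-6 Low replicates 1 (480), 2 (161) and 5 (181), and the counts below without IL-6 Low replicates 1 (129), 4 (623), 5 (144) and 6 (141) and TNF + IL-6 Low replicate 4 (479). The 123 genes with a fold over 1.2 as well became 208 without a filter and 69 with a minimum of 50, and 86 to 441 with 1 array left out, where TNF + IL-6 Low replicate 1 gave the highest count, followed by TNF + IL-6 Low replicate 4 (279) and IL-6 Low replicates 2 (237) and 4 (191). Past a fold of 1.5, 1 gene (without TNF + IL-6 Low replicate 3) to 13 genes lay above and 0 to 9 (without IL-6 Low replicate 2) below, and 0 lay below with a minimum of 50. The interaction had 298 to 638 genes at an unadjusted p under 0.05, the highest without IL-6 Low replicate 2.

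Of the 91 named genes, 89 showed no reversal of sign under the other settings and 85 with any array left out. A gene below the minimum intensity in a setting, such as Fshb without TNF + IL-6 Low replicate 3, was not tested there and not counted as reversed. The genes of smallest p were picked on these same arrays. With median centring Tnfrsf1b was 0.0077 and Tnfaip3 0.0027. With 1 array left out, Lhb ranged from -0.0058 to 1.13, Pomc from -0.088 to 1.17, Tnfrsf1b from -0.056 to 0.028, Il6ra from -0.14 to 0.0025, Tnfaip3 from -0.072 to 0.041 and Socs3 from -0.0018 to 0.10. The causes were not tested. Medians of lists near 0 also turned with single arrays: the orexigenic list ran from -0.09 (without IL-6 Low replicate 4) to 0.07 (without TNF + IL-6 Low replicate 6), tanycytes from -0.03 (without IL-6 Low replicate 4), cerebellum from -0.03 (without TNF + IL-6 Low replicate 1) and choroid plexus to 0.10 (without TNF + IL-6 Low replicate 6).

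With the replicate number as a block, 0 genes passed, and 411 genes lay above and 261 below at an unadjusted p under 0.05. Arrays of the same number had correlations of 0.17, 0.17, -0.12, -0.13, 0.11 and 0.21 in their deviations from the group means for replicates 1 to 6, so that the numbers were not taken to pair the mice. Signals near the minimum intensity, such as those of Tph2, Slc6a4 and Chrna5, limit what can be said of these genes.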
